A study of Mus musculus with 37 samples.

Results

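The 10 genes Saa1, Saa2, Saa3, Lcn2, Orm1, Orm2, Hp, Hpx, Apcs and Serpina3n encode inducible acute phase proteins, and were taken by symbol from a table of 55487 genes measured by RNA sequencing of mouse liver. All 10 were found once each, and all 10 passed the filter on low counts, which left 15564 genes for testing. The livers came from mice lacking the NADPH oxidase Nox4 (NOX4 knockout, KO, 19 livers) and from wild-type mice (WT, 18 livers), after removal of most of the liver mass (partial hepatectomy) or a sham operation. After hepatectomy there were 3 KO livers at 6 h, 4 at 24 h, 4 at 48 h and 3 at 7 d, with 5 KO sham livers. For WT the numbers at these times were 3, 3, 4 and 3, with 5 sham livers. The KO sham livers were taken at 24 h, 48 h, 48 h, 72 h and 6 h (replicates 1 to 5), and the WT sham livers at 7 d, 48 h, 24 h, 48 h and 6 h (replicates 1 to 5). Every 6 h liver, sham livers included, was male, and the other stages held both sexes. The labels give neither strain nor age, and do not say which cells lack Nox4. P-values measure the spread between these livers, which the labels list as separate samples without naming the animals.

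The acute phase response is a change in the proteins that hepatocytes release into blood after injury, infection or surgery. Cytokines of the interleukin-6 and interleukin-1 families act on hepatocytes through STAT3, NF-kB and C/EBP transcription factors, and positive acute phase proteins are made in larger amounts while albumin and other negative acute phase proteins decline. Liver removal and a sham operation are both surgical wounds, and interleukin-6 signalling is also one of the first signals of liver regeneration. Saa1 and Saa2 are apolipoproteins that join high-density lipoprotein during inflammation, and Saa3 is made mostly outside the hepatocyte, by macrophages and fat cells among others. Lcn2 binds bacterial siderophores and is made by neutrophils as well as hepatocytes. Orm1 and Orm2 are alpha-1-acid glycoproteins, Hp captures free haemoglobin and Hpx captures free haem. Apcs is serum amyloid P component, a pentraxin that is a major acute phase protein of mice, and Serpina3n is a serine protease inhibitor of the antichymotrypsin family.

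The members lie on 6 chromosomes of the GRCm38 build, with positions from the GENCODE M21 annotation. Saa3 (chr7:46711998-46715700, minus strand), Saa1 (chr7:46740497-46742980, minus strand) and Saa2 (chr7:46751790-46754313, plus strand) form a cluster with Saa1 and Saa2 head to head, and Hpx is on the same chromosome (chr7:105591613-105600137, minus strand). Orm1 (chr4:63344560-63348163) and Orm2 (chr4:63362449-63365878) are neighbours on the plus strand. Lcn2 is at chr2:32384633-32388252 (minus strand), Hp at chr8:109575128-109579172 (minus strand), Apcs at chr1:172893961-172895041 (minus strand) and Serpina3n at chr12:104406729-104414329 (plus strand). All 10 are protein-coding genes, and the counts are over their exons.

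Some members are close copies of each other, so reads may be divided between them by estimation. The coding sequences of Saa1 and Saa2 differed at 18 of 366 bases (95.08% identity), and 14.83% of their 50-base windows were shared. Saa1 and Saa3 had 75.94% identity, and Orm1 and Orm2 had 89.86%, with 9.79% of 50-base windows shared. Counts of Saa1 against Saa2, and of Orm1 against Orm2, are therefore uncertain where a read lies in a shared stretch. The stretch of coding sequence where Saa1 and Saa2 differ most densely is shown because the separation of their counts rests on such bases. It spans coding positions 70 to 189 (position 1 is the A of the start codon) on the coding strand, from GENCODE M21, and the 12 differing bases are in capitals.
Saa1: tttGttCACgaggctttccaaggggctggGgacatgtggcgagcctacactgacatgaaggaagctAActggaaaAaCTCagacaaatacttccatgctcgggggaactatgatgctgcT
Saa2: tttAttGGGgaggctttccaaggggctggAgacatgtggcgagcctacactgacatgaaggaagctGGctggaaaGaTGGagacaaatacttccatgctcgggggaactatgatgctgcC

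Upstream sequence was available from RefSeq (build GRCm38.p6) for 8 of the 10 members, all but Orm1 and Hp. It was searched on both strands, from 250 bases before to 50 bases after the gene start, for letters typical of sites of 3 factor families of the acute phase response. The C/EBP letters TTNNGNAA were present in 7 of the 8 members, against 40.7% of 32851 promoters of the same length. The STAT letters TTCNNNGAA were present in 1 of the 8, Apcs (8.3% of all promoters), and the NF-kB letters, GGG and TTTCC with any 2 bases between them, in 1 of the 8, Serpina3n (1.63% of all promoters). No match overlapped another in these 8 members, and a match describes the letters, not a bound site. Over the 250 bases before the start, Saa1 and Saa2 had 94.82% identity, and Saa1 and Saa3 had 48.51%. The 200 bases beginning 250 bases before the start are shown for the Saa genes and for Orm2, Apcs and Serpina3n, whose values the results below turn on, each on the gene's own strand with motif matches in capitals. The last match of Serpina3n, which begins 56 bases before the start, runs past the end of the stretch.
Saa1, chr7:46743031-46743230, minus strand: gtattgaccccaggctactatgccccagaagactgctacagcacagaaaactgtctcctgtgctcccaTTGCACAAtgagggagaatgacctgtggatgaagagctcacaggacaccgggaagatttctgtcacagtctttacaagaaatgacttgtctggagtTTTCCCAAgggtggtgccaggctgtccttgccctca
Saa2, chr7:46751583-46751782, plus strand: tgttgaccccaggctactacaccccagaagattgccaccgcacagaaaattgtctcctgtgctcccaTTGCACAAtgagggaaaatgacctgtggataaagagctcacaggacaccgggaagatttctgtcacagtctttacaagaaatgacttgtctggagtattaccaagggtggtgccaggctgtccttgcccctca
Saa3, chr7:46715727-46715926, minus strand: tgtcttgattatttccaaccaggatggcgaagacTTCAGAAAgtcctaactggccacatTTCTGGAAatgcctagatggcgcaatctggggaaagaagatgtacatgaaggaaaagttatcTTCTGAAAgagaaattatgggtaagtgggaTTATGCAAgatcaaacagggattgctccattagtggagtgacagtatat
Orm2, chr4:63362199-63362398, plus strand: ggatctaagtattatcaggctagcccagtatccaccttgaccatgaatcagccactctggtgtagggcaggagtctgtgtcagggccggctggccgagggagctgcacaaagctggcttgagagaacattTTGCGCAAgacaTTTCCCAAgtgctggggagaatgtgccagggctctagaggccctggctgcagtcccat
Apcs, chr1:172895105-172895304, minus strand: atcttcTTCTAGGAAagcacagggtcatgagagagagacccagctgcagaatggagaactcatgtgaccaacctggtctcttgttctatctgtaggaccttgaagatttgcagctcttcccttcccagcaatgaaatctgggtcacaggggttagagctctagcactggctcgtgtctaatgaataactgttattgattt
Serpina3n, chr12:104406458-104406657, plus strand: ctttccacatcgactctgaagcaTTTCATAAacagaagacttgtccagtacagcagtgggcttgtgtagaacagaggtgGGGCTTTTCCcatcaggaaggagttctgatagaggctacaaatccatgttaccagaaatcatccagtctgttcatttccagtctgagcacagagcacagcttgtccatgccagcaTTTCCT

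Total counts per library ranged from 26232544 to 48827025. As a check of the labels, Nox4 averaged 2.60 ± 1.42 CPM in KO males (SD, n = 12) and 14.2 ± 7.62 CPM in WT males (SD, n = 11), and 0.126 ± 0.103 CPM in KO females and 1.57 ± 0.845 CPM in WT females (SD, n = 7 each). The male ranges overlapped, with a highest KO value of 4.98 CPM and a lowest WT value of 3.95 CPM, and the female ranges did not. CPM is the count divided by the library total in units of 1000000, after TMM scaling, a correction for library composition. The summed level of 10 hepatocyte markers, albumin among them, was between 39559 and 140840 CPM in every library, as the liver label requires. In bulk tissue, fewer cells of a type and less RNA per cell cannot be told apart. A few livers stood apart from their group in nearly all members at once, and results that rest on them are given with and without them below.

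Read per kilobase of the coding transcript, a scale on which levels of different genes can be set side by side, the members spanned a wide range of abundance. Mean levels over the 37 livers were 10000 CPM per kilobase for Saa2, 8620 for Hpx, 8150 for Saa1 and 7887 for Hp. They were 3358 CPM per kilobase for Orm1, 1555 for Lcn2 and 1283 for Serpina3n, and 479 for Orm2, 425 for Apcs and 134 for Saa3. The order of these means depends on the length used: over merged exons Hpx averaged 8620 CPM per kilobase, Hp 6605, Orm1 3358, Saa2 2589 and Saa1 2003. On either per-kilobase scale the ranges over livers of neighbouring genes overlapped widely. The members also differed in how far they varied. The highest liver exceeded the lowest 1009-fold for Saa2, 414-fold for Lcn2, 342-fold for Saa1, 206-fold for Orm2 and 201-fold for Saa3, against 8.17-fold for Orm1 and 8.12-fold for Hpx.

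**Figure D1:**
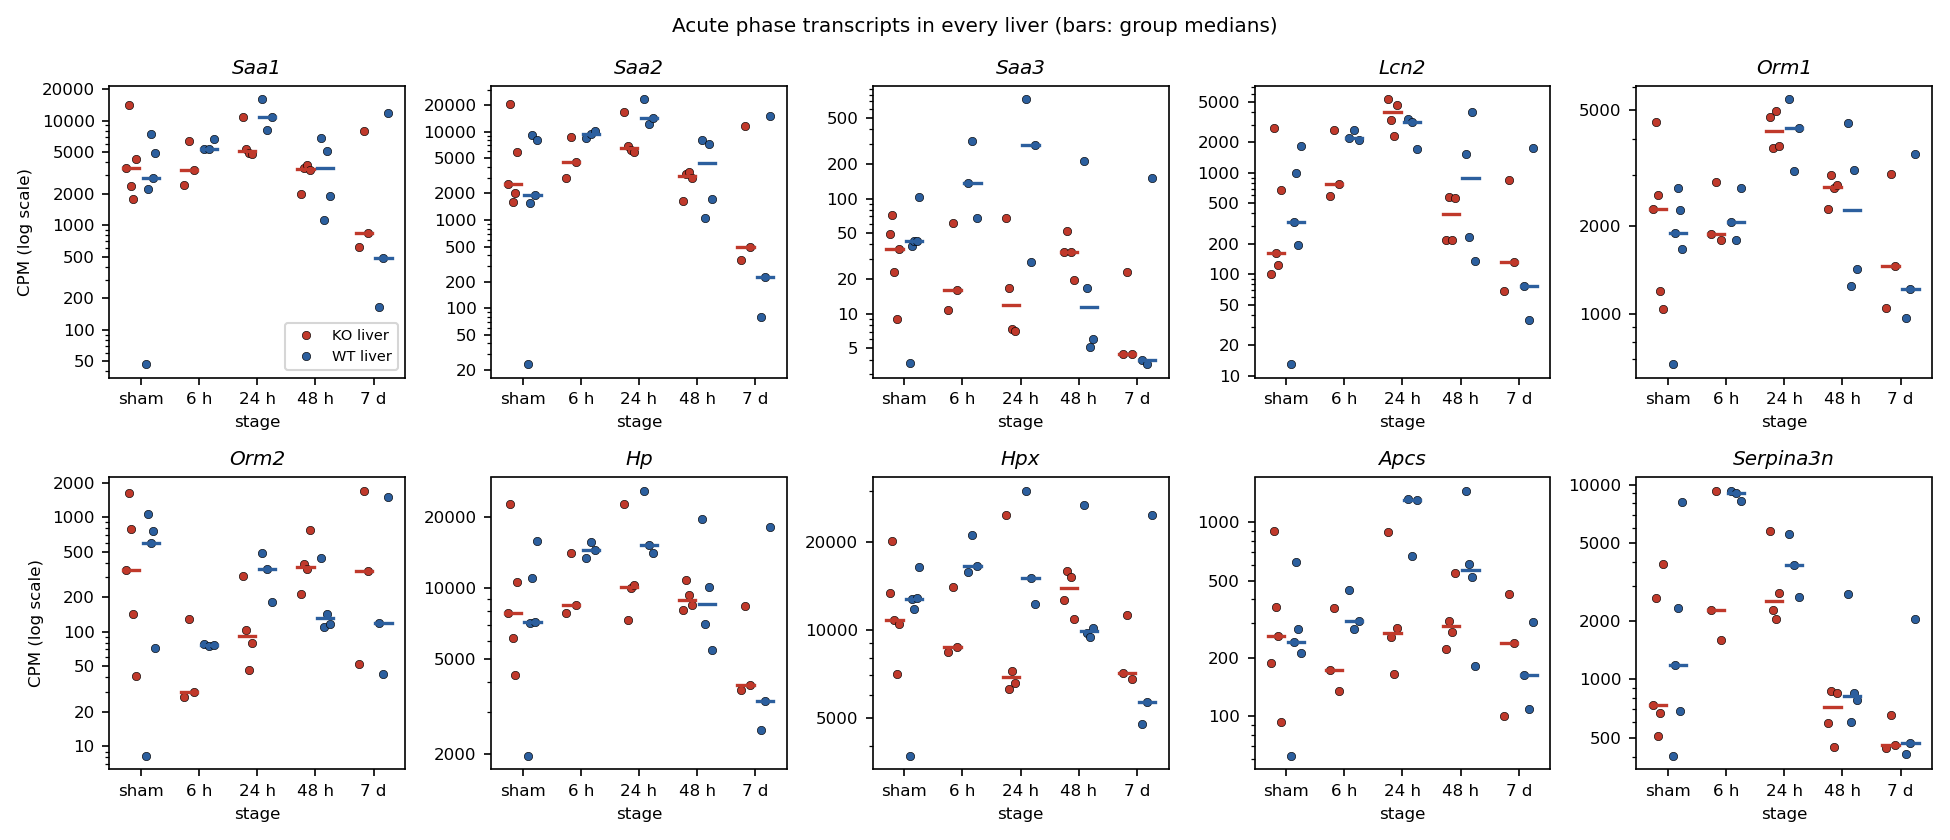
CPM on a log axis for each of the 10 members in every liver, by stage (sham, 6 h, 24 h, 48 h and 7 d after hepatectomy), KO livers left in red and WT livers right in blue; bars are group medians. The members spread over at least 1 order of magnitude within the WT sham group for Saa1, Saa2, Saa3, Lcn2, Orm2, Apcs and Serpina3n, and 1 liver of each genotype stands above the others at 7 d.

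Individual livers carried the members up or down together. Among the KO livers, replicate 2 at 6 h and replicate 2 at 7 d had the highest value of their group for all 10 members, and replicate 1 at 24 h and sham replicate 2 for 9 of 10. Among the WT livers, replicate 1 at 24 h and replicate 3 at 7 d were highest for all 10, replicate 1 at 48 h for 9, and sham replicate 1, the 7 d sham liver, was lowest for all 10. KO replicate 1 at 7 d was lowest of its group for 9. The other groups had no liver that led more than 6 members.

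The share of all counts that fell on the 10 genes shows the size of these differences between livers. It was 1.44%, 5.80% and 1.70% in the KO livers at 7 d, against 1.12%, 1.27% and 7.47% in the WT livers at 7 d. At 24 h it was 9.09%, 3.46%, 2.99% and 3.27% in KO livers, against 11.3%, 6.65% and 8.14% in WT livers. At 6 h it was 2.26%, 4.94% and 2.25% in KO livers, against 4.37%, 4.32% and 4.22% in WT livers. At 48 h it ranged from 3.31% to 4.50% in KO livers and from 2.70% to 6.24% in WT livers. Among sham livers it ranged from 2.11% to 8.59% in KO and from 0.737% to 5.32% in WT. The ranges of KO and WT livers overlapped at each of the 5 stages.

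**Figure D2:**
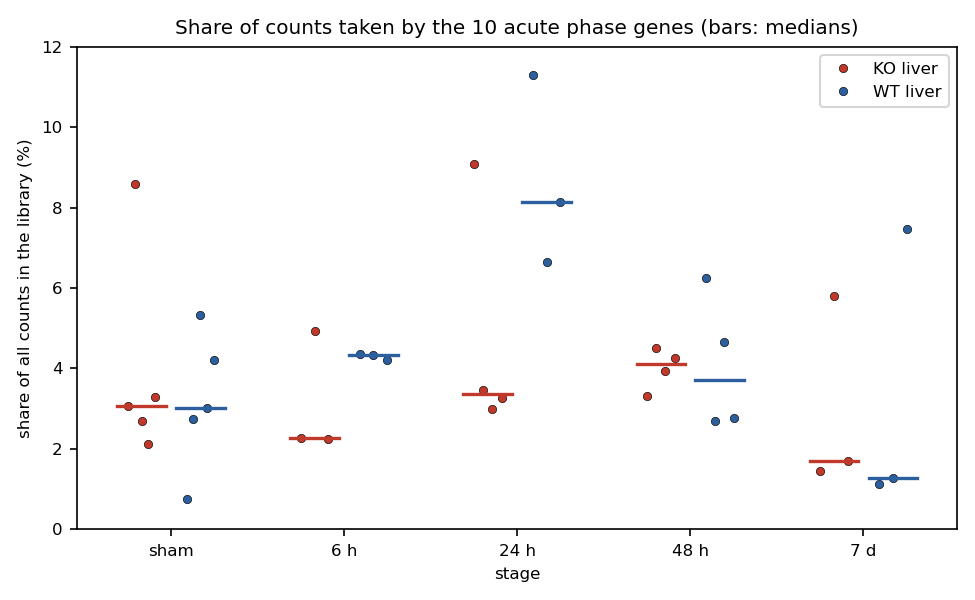
Share of each library's counts on the 10 acute phase genes (%), by stage, KO livers left in red and WT livers right in blue; bars are group medians. The WT livers at 24 h lie between 6.65% and 11.3%, and 3 of the 4 KO livers at 24 h lie between 2.99% and 3.46%.

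The 2 livers that stood highest at 7 d also had more neutrophil marker RNA than the other livers of that time. The summed level of 14 neutrophil markers was 36.2 CPM in KO 7 d replicate 2, against 5.04 and 7.73 CPM in the other KO 7 d livers, and 39.0 CPM in WT 7 d replicate 3, against 5.34 and 6.09 CPM in the other WT 7 d livers. All 14 were detected in both high livers and also in the other WT 7 d livers, while 2 were at 0 in KO 7 d replicate 1 and 1 in replicate 3. The neutrophil sum at 6 h after hepatectomy was 15.7 to 33.4 CPM in KO and 34.7 to 89.4 CPM in WT. It was 4.89 CPM in KO 24 h replicate 1 and 4.65 CPM in WT 24 h replicate 1, the high livers of that stage, with 1 marker at 0 in each. The summed level of 8 adipocyte markers was 83.1 CPM in KO 7 d replicate 2, with none at 0, and 1.90 CPM in WT 7 d replicate 3, with 4 at 0. KO 7 d replicate 2 also had a Kupffer cell sum of 1219 CPM, against 518 and 652 CPM in the other KO 7 d livers, the highest of the 37 livers. Its monocyte sum was 166 CPM, against at most 87.3 CPM in the other KO 7 d livers, and its T or NK cell sum 8.24 CPM, against 2.61 and 4.72 CPM. Its hepatocyte sum was 57935 CPM, against 107030 and 96326 CPM. The part of these cells in the members' levels was not tested.

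**Figure D3:**
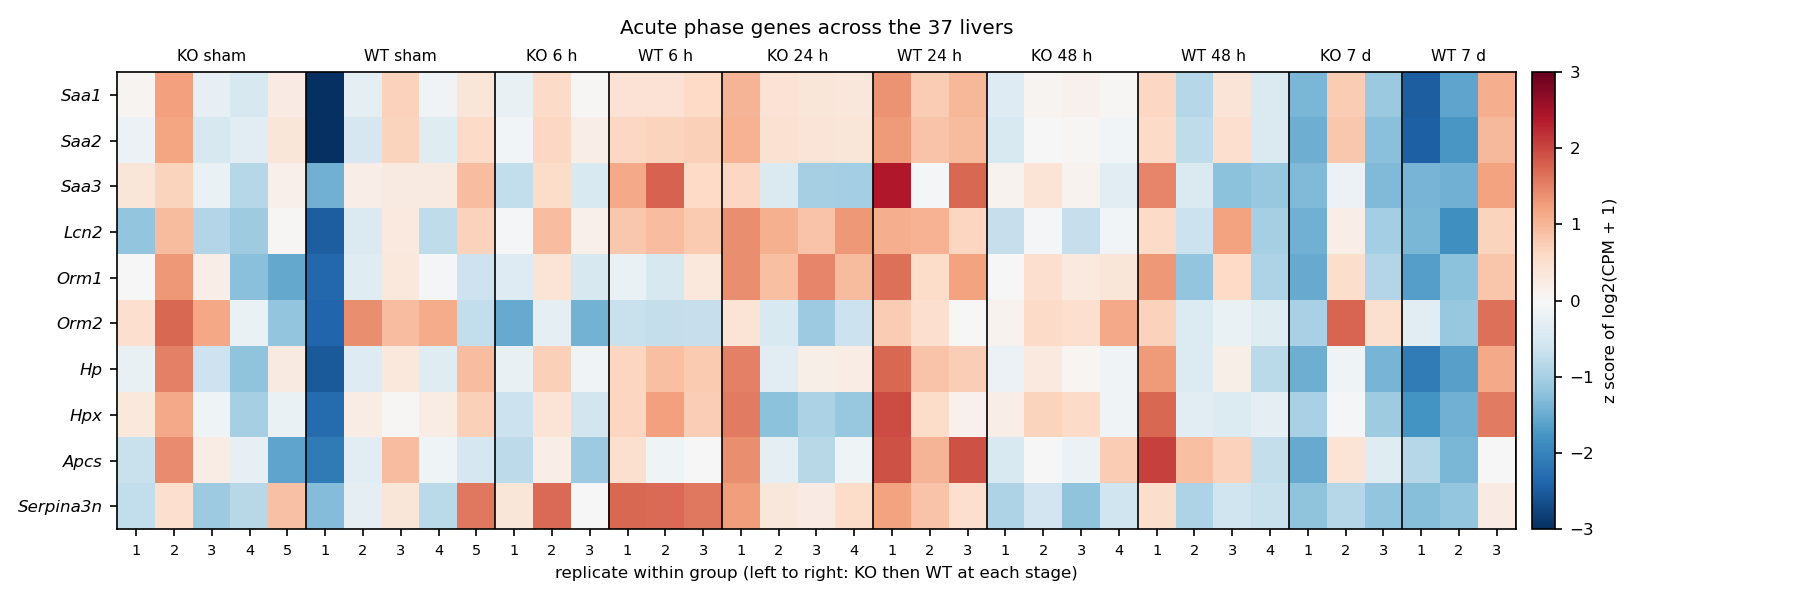
z score of log2(CPM + 1) over the 37 livers (columns, grouped by stage, KO before WT) for the 10 members (rows); red is above and blue below the gene's mean, and colours end at 3. Whole columns of 1 colour mark livers in which most members were high or low, such as WT sham replicate 1, and Orm2 and Serpina3n depart most often from the other rows.

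The members differed in how closely they followed the common pattern. The mean absolute difference between a gene's z score and the members' mean z score, over the 37 livers, was 0.242 for Saa1 and for Hp, 0.281 for Saa2, 0.382 for Hpx and 0.383 for Orm1. It was 0.413 for Lcn2, 0.444 for Saa3, 0.479 for Apcs, 0.592 for Serpina3n and 0.782 for Orm2, against a median of 1.05 over the 15564 tested genes. Each member is part of the mean it is compared with. Outside the members, the 5 nearest genes by this measure were Ifitm2 at 0.410, Itih4 at 0.447, Lbp at 0.513, Lrg1, and Ssr4 at 0.535. Itih4 is an inter-alpha-trypsin inhibitor heavy chain, Lbp binds bacterial lipopolysaccharide and Ssr4 is a subunit of the translocon-associated complex of the endoplasmic reticulum.

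At 24 h after hepatectomy the members stood high in WT livers, and 6 of the 10 (Saa1, Saa2, Saa3, Orm1, Hp and Apcs) had their highest group median there. Apcs rose in WT livers at 24 h against WT sham livers of mixed times, and was lower in KO than in WT livers at 24 h. It was the only member past the threshold in either comparison. The threshold is an adjusted p of 0.05 in edgeR's quasi-likelihood test with Benjamini-Hochberg adjustment over all tested genes.

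Apcs reached 1318, 671 and 1302 CPM in WT livers at 24 h, against 62.1, 242, 622, 281 and 212 CPM in WT sham livers, and the ranges did not overlap. Its log2 change was 2.49 (SE 0.62, adjusted p = 0.0442), and 0.925% of all tested genes were called in that comparison. The highest of these sham livers, at 622 CPM, was the one taken at 24 h. Against sham livers of 24 h only, with the genotypes together, the log2 change of Apcs was 0.96 (SE 0.73, adjusted p = 0.533). In KO livers at 24 h Apcs had 894, 254, 165 and 283 CPM, against 188, 903, 364, 257 and 93.0 CPM in KO sham livers, with a log2 change of 0.11 (SE 0.55, adjusted p = 0.900). Only KO replicate 1 was within the range of the WT livers of that stage. Between genotypes at 24 h the log2 difference was -1.92 (SE 0.65, adjusted p = 0.0373), in a comparison where 18.6% of all genes were called. The interaction, the KO change minus the WT change at 24 h, was -2.38 for Apcs (SE 0.84, adjusted p = 0.0675), which missed the threshold. In that interaction 0 of 10 members were called by edgeR, 1 (Apcs) had an unadjusted p below 0.05 and DESeq2 called 1 (Apcs), while edgeR called 8.47% of all genes. Of the 15564 tested genes, 4192 had an unadjusted p below 0.05 there, and DESeq2 called 2109.

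The call of Apcs was near the threshold and depended on the sex term and on single livers. The sex term is drawn in part from sham livers, in which sex and time went together within each genotype. Between genotypes at 24 h the log2 difference was -1.46 without the sex term (adjusted p = 0.139) and -1.88 in the compared groups alone (adjusted p = 0.284). Without the sex term Saa3 passed in its place (log2 difference -3.82, adjusted p = 0.0488). The rise in WT livers was 1.95 without the sex term (adjusted p = 0.154), 2.43 in the compared groups alone (adjusted p = 0.385), 3.26 in males alone (adjusted p = 0.0962) and 2.52 without the 6 h sham livers (adjusted p = 0.0654). Between genotypes at 24 h its adjusted p was 0.107 without WT replicate 1, 0.0927 without WT replicate 3, and 0.0802, 0.124 and 0.115 without KO replicates 2, 3 and 4. Without KO 24 h replicate 1 the log2 difference was -2.36 (adjusted p = 0.00868), and the interaction was -2.80 (adjusted p = 0.0172). In the interaction Apcs passed without any of 5 of the 37 livers, with adjusted p values from 0.0172 to 0.173 over all omissions. Its rise in WT livers at 24 h lost the threshold without any of 20 of the 37 livers, with an adjusted p of 0.368 without WT 24 h replicate 3, 0.0666 without WT 24 h replicate 1, and 0.125, 0.0988, 0.0843 and 0.0609 without WT sham replicates 1, 2, 4 and 5. The other 14 such livers belonged to stages outside the comparison or to KO and gave adjusted p values from 0.0507 to 0.0584. Those were WT 6 h replicates 1, 2 and 3, WT 7 d replicate 2, KO sham replicates 1 and 3, KO 6 h replicate 1, KO 48 h replicates 1 to 4 and KO 7 d replicates 1 to 3.

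By fitted values the other members gave the same direction in WT livers at 24 h without passing the test. Saa1 had 16028, 8075 and 10743 CPM in WT livers at 24 h, against 46.8, 2227, 7447, 2817 and 4906 CPM in WT sham livers (log2 change 1.91, SE 1.00, adjusted p = 0.363). Saa2 had 23372, 12296 and 14468 CPM at 24 h, against 23.2, 1574, 9208, 1899 and 8153 CPM in WT sham livers (log2 change 2.14, SE 1.21, adjusted p = 0.402), and without WT sham replicate 5 the change was 3.05 (adjusted p = 0.290). Orm1 had 5465, 3085 and 4338 CPM at 24 h, against 669, 1897, 2706, 2266 and 1664 CPM in WT sham livers (log2 change 1.36, SE 0.47, adjusted p = 0.147). For these 3 genes, as for Apcs, every WT liver at 24 h lay above every WT sham liver, which held for 4 of 10 members in this comparison and 0 of 10 were apart in the other direction; in either direction the ranges were apart for 6.16% of all tested genes. The median log2 change of the members was 1.63, against 0.04 for all tested genes. In the same comparison 1 of 7 tested adipocyte markers rose, with a list median of 2.90. The summed level of 8 adipocyte markers was 12.8, 7.48 and 91.7 CPM in WT livers at 24 h (replicates 1 to 3). It was 1.39 to 8.97 CPM in WT sham livers, with up to 5 of the 8 at 0. The part of adipocytes was not tested. Sham replicate 1 was far below the other WT sham livers in Saa1, Saa2 and Orm1, and without it the log2 change of Saa1 was 1.51 (adjusted p = 0.501). Orm2 had a fitted log2 change of 0.59 (SE 1.11, adjusted p = 0.856). Its measured median was lower at 24 h, at 350 CPM, against 595 CPM in WT sham livers.

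In KO livers at 24 h Lcn2 had its highest group median. It reached 5337, 3312, 2325 and 4735 CPM, against 99.6, 2770, 162, 123 and 677 CPM in KO sham livers, and 1 KO sham liver, replicate 2, reached into the 24 h range (log2 change 2.46, SE 1.09, adjusted p = 0.0886). Orm1 had 4753, 3700, 4978 and 3761 CPM in KO livers at 24 h, against 2296, 4552, 2566, 1200 and 1034 CPM in KO sham livers (log2 change 0.91, SE 0.42, adjusted p = 0.101). Orm2 went the other way, with 309, 103, 45.9 and 80.1 CPM in KO livers at 24 h, against 349, 1632, 790, 142 and 40.9 CPM in KO sham livers (log2 change -1.94, SE 0.98, adjusted p = 0.136). Of the 10 members edgeR called 0 in KO livers at 24 h, 2 (Lcn2 and Orm1) had an unadjusted p below 0.05 and DESeq2 called 0, although edgeR called 28% of all tested genes. Of the 15564 tested genes, 6342 had an unadjusted p below 0.05 there, and DESeq2 called 4884. Without KO sham replicate 2, Lcn2 (log2 change 3.79, adjusted p = 0.0235) and Orm1 (log2 change 1.26, adjusted p = 0.0334) passed the threshold. The median log2 change of the members was 0.30, against -0.01 for all tested genes.

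**Figure D4:**
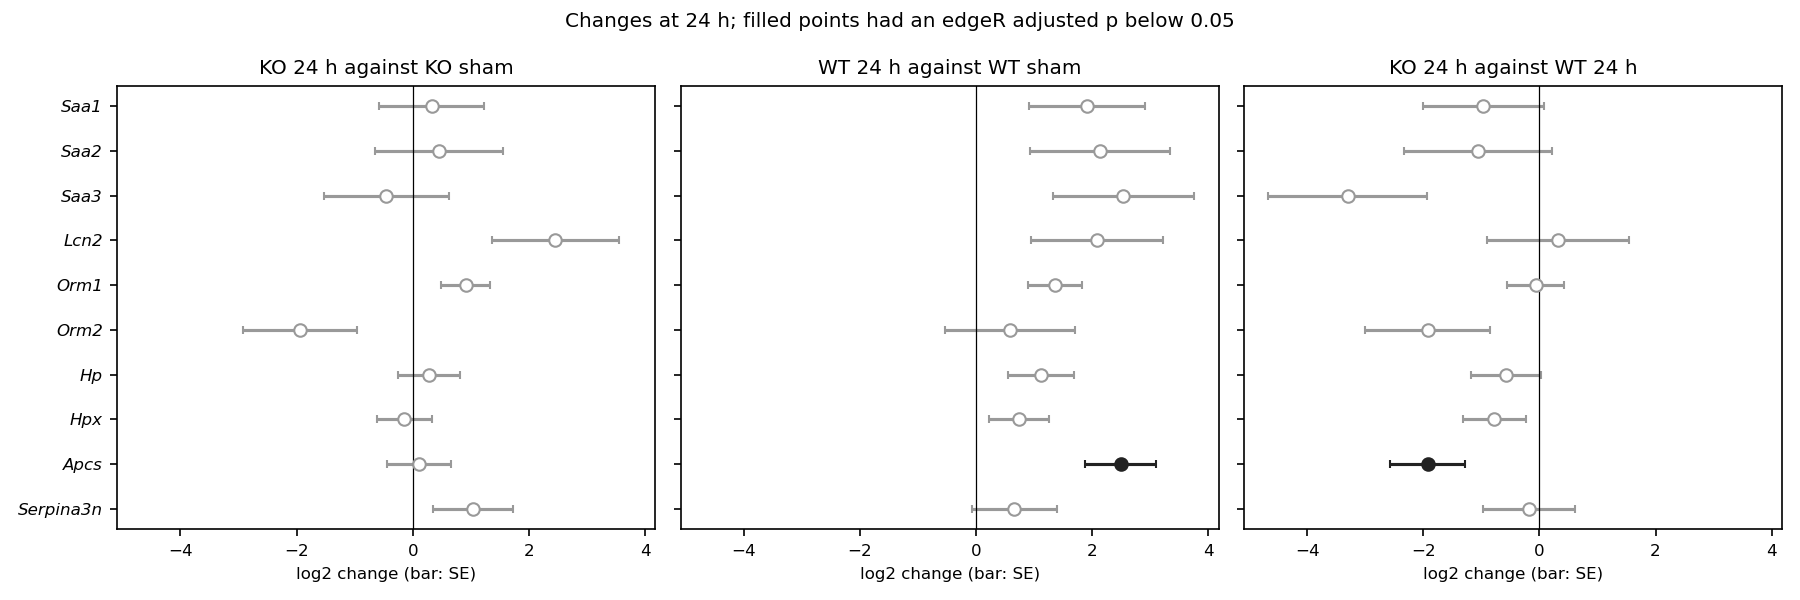
Log2 change with its SE for the 10 members, in KO livers at 24 h against KO sham, WT livers at 24 h against WT sham, and KO against WT livers at 24 h; filled points had an edgeR adjusted p below 0.05. Apcs is filled in the WT panel (2.49) and in the KO against WT panel (-1.92), and no point is filled in the KO panel.

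Saa3, the member with the lowest level, showed the largest difference between genotypes at 24 h and did not pass the test. It had 68.2, 16.6, 7.37 and 7.15 CPM in KO livers at 24 h, against 729, 28.1 and 294 CPM in WT livers. KO replicate 1 lay above WT replicate 2, so the ranges overlapped. The log2 difference was -3.30 (SE 1.36, adjusted p = 0.0844), and DESeq2 gave -3.34 with an adjusted p of 0.0274. WT replicate 1 carried much of the difference, which was -2.26 without it (adjusted p = 0.279). The adjusted p was 0.0110 without KO 24 h replicate 1 (log2 difference -4.79), 0.0330 without WT 48 h replicate 1 and 0.0421 without WT 7 d replicate 3. Saa3 is also made by macrophages and adipocytes. The summed level of 12 Kupffer cell markers, the resident macrophages of the liver, was 161 to 441 CPM in KO livers and 316 to 635 CPM in WT livers at 24 h, and 3 of the 12 were lower in KO by edgeR. The adipocyte sum was at most 33.4 CPM in KO livers and 7.48 to 91.7 CPM in WT livers at 24 h, highest in WT replicate 3. The part of either cell type in the Saa3 difference was not tested.

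The haemoglobin and haem binders, Hp and Hpx, showed the weight of single livers at 24 h. Hp had 22627, 7366, 10009 and 10276 CPM in KO livers, against 25704, 15237 and 14075 CPM in WT livers. Hpx had 24869, 6268, 7234 and 6601 CPM in KO livers, against 30084, 15076 and 12302 CPM in WT livers. For both genes KO replicate 1 lay inside the WT range and the other 3 KO livers lay below it. The same split held for Saa1, with 10944, 5326, 4917 and 4852 CPM in KO livers, against 16028, 8075 and 10743 CPM in WT livers.

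Other members at 24 h were lower in KO livers by amounts within the spread. The log2 differences were -0.97 for Saa1, -1.05 for Saa2, -1.92 for Orm2, -0.57 for Hp and -0.77 for Hpx, with adjusted p values from 0.201 to 0.586. The difference was 0.32 for Lcn2 (SE 1.23), -0.07 for Orm1 (SE 0.48) and -0.18 for Serpina3n (SE 0.79). The median over the 10 members was -0.87, against -0.03 over all tested genes, and the KO and WT ranges overlapped for all 10 members, while they were apart for 11.2% of all tested genes.

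At 6 h after hepatectomy Lcn2 and Serpina3n had the largest fitted changes against sham in WT livers, and neither passed the test. Serpina3n had 9295, 9077 and 8205 CPM in WT livers at 6 h, against 403, 1186, 2314, 684 and 8104 CPM in WT sham livers (log2 change 1.65, SE 0.75, adjusted p = 0.166). Lcn2 had 2210, 2631 and 2131 CPM in WT livers at 6 h, against 12.9, 327, 1002, 195 and 1850 CPM in WT sham livers (log2 change 2.06, SE 1.16, adjusted p = 0.273). For both genes all WT 6 h livers lay above all WT sham livers, and the highest sham liver was the one taken at 6 h. The ranges were apart for 2 of 10 members and 17.1% of all tested genes. Without that 6 h sham liver, WT sham replicate 5, both passed the threshold, Serpina3n with a log2 change of 2.97 (adjusted p = 0.00984) and Lcn2 with 4.00 (adjusted p = 0.0386).

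In KO livers at 6 h Serpina3n had 2269, 9261 and 1598 CPM, against 738, 2625, 512, 667 and 3915 CPM in KO sham livers (log2 change 1.20, SE 0.75, adjusted p = 0.368), and without KO 6 h replicate 2 the change was 0.02 (adjusted p = 0.997). KO replicate 2 lay inside the range of the WT 6 h livers, and the other 2 KO livers lay inside the range of the KO sham livers. Orm2 had 26.8, 130 and 29.5 CPM in KO livers at 6 h, against 349, 1632, 790, 142 and 40.9 CPM in KO sham livers (log2 change -2.09, SE 1.15, adjusted p = 0.297), and without KO 6 h replicate 2 the change was -3.23 (adjusted p = 0.182). Against sham livers of 6 h only, with the genotypes together, the log2 change of Orm2 was 0.30 (SE 1.01, adjusted p = 0.974). edgeR called 0 of 10 members at 6 h in KO livers, where it called 6.62% of all genes, and 0 of 10 in WT livers, where it called 7.86%. An unadjusted p below 0.05 was reached by 0 members in KO and by 1 in WT (Serpina3n), and DESeq2 called 0 in each. Of the 15564 tested genes, 3404 in KO and 3838 in WT had an unadjusted p below 0.05, and DESeq2 called 1595 and 1752. The median log2 change of the members was -0.07 in KO and 0.98 in WT, against 0.00 and 0.02 for all tested genes.

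Set side by side at 6 h, the KO livers were lower than the WT livers for all 10 members by their fitted values, with a median log2 difference of -0.70, against 0.02 for all tested genes. Members vary together within a liver, so these 10 signs are not separate observations. Saa3 had 10.9, 61.9 and 16.2 CPM in KO livers, against 138, 318 and 67.4 CPM in WT livers, and Hpx had 8411, 14090 and 8749 CPM in KO livers, against 15813, 21134 and 16572 CPM in WT livers. These were the 2 members whose ranges did not overlap between genotypes at 6 h, where 18.5% of all genes had ranges apart. The log2 differences were -2.55 for Saa3 (SE 1.35, adjusted p = 0.513) and -0.78 for Hpx (SE 0.57, adjusted p = 0.664). edgeR called 0 of 10 members and 0.116% of all genes, 0 members had an unadjusted p below 0.05 and DESeq2 called 0. Of the 15564 tested genes, 1648 had an unadjusted p below 0.05, and DESeq2 called 125.

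At 48 h Apcs was the member nearest to the threshold in WT livers. It had 1456, 609, 522 and 182 CPM in WT livers at 48 h, against 62.1, 242, 622, 281 and 212 CPM in WT sham livers (log2 change 1.66, SE 0.57, adjusted p = 0.0651). DESeq2 called it with an adjusted p of 0.0258, and edgeR called it without WT sham replicate 3 (adjusted p = 0.0463) or without WT 48 h replicate 4 (adjusted p = 0.0414). Without WT 48 h replicate 1 the change was 0.54 (adjusted p = 0.558). In KO livers at 48 h Apcs had 221, 307, 272 and 546 CPM (log2 change against KO sham 0.17, SE 0.56, adjusted p = 0.954). At this stage Lcn2 ranged from 216 to 581 CPM in KO livers and from 136 to 4033 CPM in WT livers at 48 h. edgeR called 0 of 10 members in KO livers and 0 of 10 in WT livers, with 3% and 8.29% of all genes called. An unadjusted p below 0.05 was reached by 0 members in KO and 1 (Apcs) in WT, and DESeq2 called 0 and 1 (Apcs). Of the 15564 tested genes, 2072 in KO and 3509 in WT had an unadjusted p below 0.05, and DESeq2 called 688 and 1799. The median log2 change of the members was -0.26 in KO and 0.25 in WT livers.

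At 7 d the KO median was the lowest or second lowest of the 10 group medians for 7 members and the WT median for 9, yet 1 liver of each genotype was high. Saa1 had 623, 7890 and 837 CPM in KO livers at 7 d, and 165, 484 and 11836 CPM in WT livers. Saa2 had 356, 11486 and 500 CPM in KO livers, and 79.2, 229 and 14959 CPM in WT livers. Orm2 had 52.8, 1700 and 336 CPM in KO livers, and 120, 42.9 and 1503 CPM in WT livers. Against sham, edgeR called 0 of 10 members and 0% of all genes in KO livers, and 0 of 10 and 0% in WT livers. Without adjustment 497 genes in KO and 950 in WT had a p below 0.05, 0 members among them, and DESeq2 called 6 and 31 genes and 0 members.

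Each of the 10 members had its KO and WT ranges overlapping in sham livers, at 24 h, at 48 h and at 7 d, where ranges were apart for 2.06%, 11.2%, 8.13% and 12.9% of all tested genes. edgeR called 0 of 10 members between genotypes in sham livers, at 48 h and at 7 d, where it called 0.276%, 0.341% and 0.045% of all genes. In these 3 comparisons 0 members had an unadjusted p below 0.05, and DESeq2 called 0. Over the 15564 tested genes 1999, 1752 and 203 had an unadjusted p below 0.05, and DESeq2 called 286, 224 and 28. The median log2 difference of the members was 0.32 in sham livers, -0.38 at 48 h and -0.68 at 7 d. Averaged over the 5 stages, Saa3 was lower in KO by a log2 difference of -1.73 (SE 0.59, adjusted p = 0.106) and Apcs by -0.66 (SE 0.28, adjusted p = 0.192). In the average edgeR called 0 of 10 members and 2.72% of all genes, 2 members (Saa3 and Apcs) had an unadjusted p below 0.05, and DESeq2 called 1, Saa3, with an adjusted p of 0.0221. Over the tested genes 3161 had an unadjusted p below 0.05 in the average, and DESeq2 called 865. Without KO 24 h replicate 1, edgeR called Saa3 in the average (log2 difference -1.94, adjusted p = 0.0212), and without WT 7 d replicate 3 the difference was -1.11 (adjusted p = 0.288).

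Whether hepatectomy changed a member differently in the genotypes was tested by the interaction at each stage. At 6 h, 48 h and 7 d edgeR called 0 of 10 members and 0%, 0% and 0% of all genes, and 0 members had an unadjusted p below 0.05. Among all genes 715, 1198 and 347 had an unadjusted p below 0.05 at these stages and DESeq2 called 8, 53 and 3, none of them a member. The median interaction of the members was -0.90 at 6 h, -1.23 at 24 h, -0.44 at 48 h and -1.10 at 7 d, on the log2 scale. These interactions share the sham livers of both genotypes.

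The sham livers themselves were not a flat baseline. Serpina3n was higher in the sham livers taken at 6 h than in later sham livers. It had 3915 CPM in the KO and 8104 CPM in the WT 6 h sham liver, against 738, 2625, 512 and 667 CPM in later KO sham livers and 403, 1186, 2314 and 684 CPM in later WT sham livers. Both 6 h sham livers lay above all 8 later ones (log2 change 2.70, SE 0.64, adjusted p = 0.0209), and 2.59% of all genes were called. This fit took both genotypes together, with genotype and sex as terms, and tested 16845 genes. Its reference was the mean of the 24 h, 48 h, 72 h and 7 d sham groups, each with the same weight. The 72 h and 7 d groups held 1 liver each, so without WT sham replicate 1 the reference had no 7 d group. The call was lost without WT sham replicate 1 (adjusted p = 0.0902), WT sham replicate 5 (0.359) or KO sham replicate 5 (0.0919), and in males alone (0.0645). Both replicates 5 are the 6 h sham livers themselves.

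Lcn2 and Saa2 had positive fitted changes in the 6 h sham livers against later ones without passing the test. Some later sham livers lay above both 6 h sham livers. KO sham replicate 2 had 2770 CPM of Lcn2 and 20874 CPM of Saa2, and WT sham replicate 3 had 9208 CPM of Saa2. Lcn2 had 677 CPM in the KO and 1850 CPM in the WT 6 h sham liver (log2 change against later sham 3.17, SE 1.15, adjusted p = 0.142). It passed without KO sham replicate 2 (adjusted p = 0.0422) or WT 7 d replicate 3 (adjusted p = 0.0488), and its log2 change was 1.95 without WT sham replicate 1, the low 7 d sham liver (adjusted p = 0.464). Saa2 had 5892 CPM in the KO and 8153 CPM in the WT 6 h sham liver (log2 change 2.59, SE 1.17, adjusted p = 0.256), and without WT sham replicate 1 its change was 0.65 (adjusted p = 0.852). Orm2 was low in every 6 h liver, at 26.8 to 130 CPM after hepatectomy and 40.9 and 71.8 CPM after sham, and all 6 h livers were male. Some livers of other times were also low in Orm2, such as the 7 d sham liver at 8.26 CPM. The median log2 change of the members was 1.17, against -0.05 for all tested genes.

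Set against sham livers of the same time, hepatectomy livers did not differ in any member past the threshold. At 24 h Lcn2 had 5337, 3312, 2325 and 4735 CPM in KO and 3423, 3149 and 1709 CPM in WT hepatectomy livers, against 99.6 CPM in the KO and 1002 CPM in the WT sham liver, with no overlap. Its log2 change was 3.35 (SE 1.5, adjusted p = 0.304), and 4.52 without WT sham replicate 3 or 2.57 without KO sham replicate 1. At 6 h Serpina3n ranged from 1598 to 9295 CPM in hepatectomy livers, with the 2 sham livers inside that range (log2 change 0.13, SE 0.68, adjusted p = 0.989). At 7 d the only sham liver was WT sham replicate 1, lowest of its group in all 10 members, so that comparison rests on 1 liver. There the 10 fitted log2 changes were all positive, from 1.14 for Serpina3n to 7.76 for Saa2.

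Time-matched calls were 0 of 10 members at each of the 4 times, with 0.0119% of all genes called at 6 h, 0.0119% at 24 h, 4.17% at 48 h and 0.0297% at 7 d. An unadjusted p below 0.05 was reached by 0, 1 (Lcn2) and 0 members at 6 h, 24 h and 48 h. Of all 16845 genes tested in this fit, 1423, 2473 and 3318 reached it. DESeq2 called 0 members at each of these times, and 156, 330 and 1364 of all genes. The 7 d comparison rests on 1 sham liver, and its range of log2 changes is given above.

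**Figure D5:**
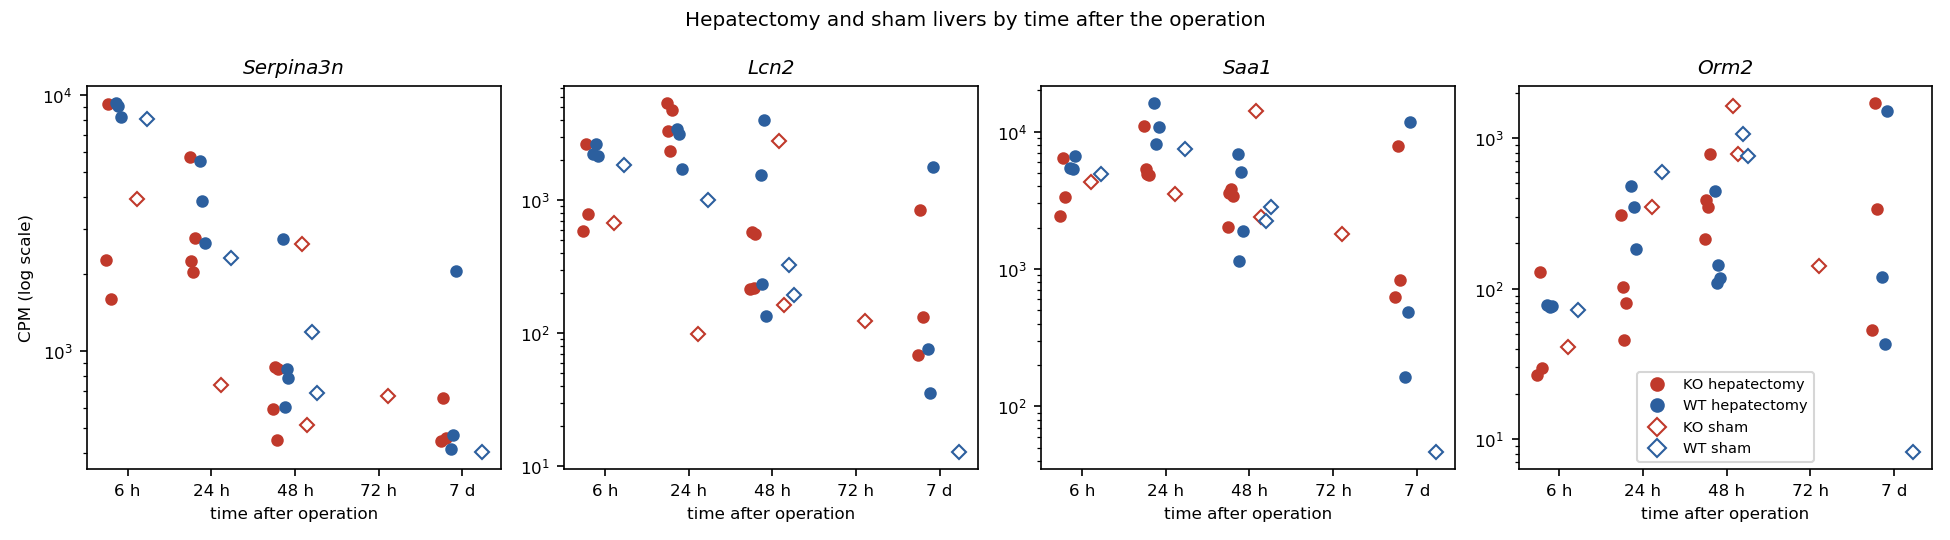
CPM on a log axis for Serpina3n, Lcn2, Saa1 and Orm2 against time after the operation; filled circles left are hepatectomy livers and open diamonds right are sham livers, KO in red and WT in blue. At 6 h the sham diamonds of Serpina3n (3915 and 8104 CPM) lie inside the range of the hepatectomy circles (1598 to 9295 CPM), and the 7 d sham diamond is the lowest point for each gene shown.

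The ratio of the paired copies is given as a description, with no test. Saa2 counts over Saa1 counts were 1.32 ± 0.07 in KO livers at 6 h and 1.61 ± 0.11 in WT livers at 6 h (SD, n = 3 each). At 24 h the ratio was 1.32 ± 0.15 in KO (SD, n = 4) and 1.44 ± 0.09 in WT (SD, n = 3). At 48 h it was 0.897 ± 0.049 in KO and 1.11 ± 0.24 in WT (SD, n = 4 each). In sham livers it was 1.07 ± 0.37 in KO and 0.95 ± 0.48 in WT (SD, n = 5 each), and at 7 d it was 0.571, 1.46 and 0.597 in KO and 0.481, 0.472 and 1.26 in WT. The 2 high livers of 7 d were thus also the livers with the high ratio. Since reads in shared stretches are divided by estimation, the ratio is less certain than the sum, and the sham and 7 d ranges overlapped those of the other stages.

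The ratio of Orm2 counts to Orm1 counts was likewise not tested. It was between 0.0143 and 0.0456 in KO livers and between 0.0284 and 0.0421 in WT livers at 6 h. At 48 h it was between 0.0926 and 0.281 in KO and between 0.0460 and 0.0979 in WT livers, and at 7 d between 0.0504 and 0.561 in KO and between 0.0354 and 0.425 in WT livers. It was between 0.0395 and 0.358 in KO and between 0.0124 and 0.564 in WT sham livers. At 24 h it was 0.0650, 0.0277, 0.00922 and 0.0213 in KO livers, against 0.0885, 0.114 and 0.0423 in WT livers, and 1 KO liver, replicate 1, reached into the WT range.

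The sexes did not differ in a member past the threshold. Orm2 was lower in males by a log2 difference of -1.62 (SE 0.65, adjusted p = 0.203) and Apcs by -0.91 (SE 0.33, adjusted p = 0.148), with group as a term. edgeR called 0 of 10 members and 3.59% of all genes, 2 members (Orm2 and Apcs) had an unadjusted p below 0.05, and DESeq2 called both, with adjusted p values of 0.0282 and 0.0410. Of the 15564 tested genes, 2341 had an unadjusted p below 0.05, and DESeq2 called 853. In edgeR, Orm2 passed without WT 7 d replicate 3 (adjusted p = 0.0433) and Apcs without WT 48 h replicate 1 (adjusted p = 0.0117). All livers at 6 h after hepatectomy were male, so the sexes were compared within the other groups, the sham groups included. Within the sham livers of a genotype no time held both sexes, so sex and time cannot be told apart there. All 48 h sham livers were female, and those of 6 h, 72 h and 7 d were male. Orm2 had 757 to 1632 CPM in sham livers at 48 h and 349 and 595 CPM at 24 h. It had 40.9 and 71.8 CPM at 6 h, 142 CPM at 72 h and 8.26 CPM at 7 d.

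Related genes of the pathway were read from lists chosen with earlier results of these data known. Their changes against sham are against the sham livers of mixed times within a genotype. Against sham livers of the same time, with the genotypes together, edgeR called 2 of 16845 genes at 6 h and 2 at 24 h. Of these, 0 were higher after hepatectomy, and each of these times had 2 sham livers. Of 22 other positive acute phase genes, 3 rose in KO livers and 4 in WT livers at 6 h against sham, where 6.62% and 7.86% of all tested genes were called in either direction. Il1rn, which encodes a decoy ligand of the interleukin-1 receptor, rose by a log2 change of 3.03 in KO (SE 0.62, adjusted p = 0.00316) and 3.90 in WT (SE 0.65, adjusted p = 0.000769). Cd14, a coreceptor for bacterial lipopolysaccharide, rose by 3.56 in KO (SE 0.84, adjusted p = 0.00997) and 3.95 in WT (SE 0.88, adjusted p = 0.00713). Steap4, a metalloreductase, rose by 2.77 in KO (adjusted p = 0.0267) and 2.89 in WT (adjusted p = 0.0196). The list's median log2 change was 0.26 in KO and 0.80 in WT.

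Of 22 regulators of the response, 19 were tested, and 5 rose in KO livers and 7 in WT livers at 6 h. Socs3, the feedback inhibitor induced by STAT3, rose by 1.93 in KO (SE 0.60, adjusted p = 0.0482) and 2.56 in WT (SE 0.60, adjusted p = 0.00965). Nfkbiz, a nuclear cofactor of NF-kB, rose by 2.36 in KO (SE 0.59, adjusted p = 0.0149) and 2.51 in WT (SE 0.61, adjusted p = 0.0121). Among 12 paralogs of the members, 9 were tested, and 5 of the 9 rose in each genotype at 6 h. Serpina3i rose by 4.30 in KO (SE 0.72, adjusted p = 0.000605) and 3.08 in WT (SE 0.70, adjusted p = 0.00833). The 10 members held 0 calls at 6 h, and whether the lists differ was not tested. The quasi-dispersion, edgeR's moderated factor on the variance that its count model assigns to a gene, ran from 1.53 for Orm1 to 11.6 for Saa3 among the members. Of 14 neutrophil markers 13 were tested, and 0 rose in KO and 5 rose in WT at 6 h.

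At 24 h Cd14 and fibrinogen genes were among those that rose in KO livers. In KO livers 5 of 22 other positive acute phase genes rose and 2 fell against sham, and in WT livers 0 did in either direction. Over all tested genes 28% were called in KO and 0.925% in WT livers, so these counts are near the shares of all genes. Fgg, a fibrinogen chain, rose in KO by a log2 change of 1.36 (SE 0.35, adjusted p = 0.00517), while Crp, C-reactive protein, fell, with a log2 change of -1.59 (SE 0.46, adjusted p = 0.0105). Between genotypes at 24 h, 5 of the 22 were higher and 1 was lower in KO, where 18.6% of all tested genes were called. Cd14 was higher by a log2 difference of 6.40 (SE 1.15, adjusted p = 0.00119) and Hamp, the iron hormone hepcidin, by 3.31 (SE 0.92, adjusted p = 0.0146). Orm3, a paralog of Orm1 and Orm2, was higher by 2.89 (SE 0.90, adjusted p = 0.0254), while Crp was lower by a log2 difference of -1.75 (SE 0.50, adjusted p = 0.0178). Of 19 regulators tested, 3 were higher in KO, Lif, Cebpb and Stat3, with Stat3 at 1.01 (SE 0.35, adjusted p = 0.0443). At this stage 6 of 8 sinusoidal endothelial markers and 3 of 12 Kupffer cell markers were also lower in KO, and their part in these differences was not tested.

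Of 11 negative acute phase genes, 1 was higher in KO than in WT livers at 24 h, albumin (Alb), by a log2 difference of 0.95 (SE 0.27, adjusted p = 0.0167). The hepatocyte marker sum, which includes Alb, was 80651, 88464, 113220 and 140840 CPM in KO livers, against 61973, 83875 and 39559 CPM in WT livers. WT 24 h replicate 3 had the lowest hepatocyte sum and the highest mitochondrial share of counts (8.93%) of the 37 livers, and the part of these in the results at 24 h was not tested. At 48 h 0 of the 11 passed in KO livers, and 3 fell in WT livers, Apoa2, Gc and Serpina6, with 3% of all tested genes called in KO and 8.29% in WT. Apoa2, an apolipoprotein of high-density lipoprotein, had a log2 change of -1.13 in WT livers at 48 h (SE 0.27, adjusted p = 0.00745). Of 11 names listed as receptors and partners of the members, 10 were found among the measured genes, and these 10 were tested. Hmox1, the enzyme that breaks down haem and the partner of Hp and Hpx in haem clearance, rose at 6 h by 2.90 in KO (SE 0.56, adjusted p = 0.00192) and by 2.90 in WT (SE 0.57, adjusted p = 0.00365). At 24 h Hmox1 was higher in KO than in WT livers by a log2 difference of 2.34 (SE 0.63, adjusted p = 0.0123).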

How the data were processed

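RNA was sequenced from 37 frozen livers, prepared with a stranded mRNA kit per the labels' protocols. The deposited table holds whole numbers that were taken as rounded expected counts, since the submitters' processing notes name STAR 2.5.3a, RSEM 1.3.0 and the GRCm38 build; the authors' annotation and strand setting are not given in the sources used here. Genes were filtered with edgeR's filterByExpr, scaled by TMM and tested with edgeR 4.0.16 (quasi-likelihood, robust) in R 4.3.3, with 10 genotype and stage groups and sex as terms, over 24 contrasts. Contrasts by time of sham operation came from a second fit on operation and time, with genotype and sex as terms. The call rule was a Benjamini-Hochberg adjusted p below 0.05 over all tested genes. SEs were the absolute log2 change over the square root of F. Heatmap and likeness values used log2(CPM + 1). The test was checked on simulated counts, drawn independently with the same dispersion for every gene. That setting lacks the members' wide spread and joint movement within livers, so the check does not bear on their calls. Alternatives were DESeq2 1.42.0, scaling by RLE, a filter of 1 count only, a model lacking sex, males alone, the compared groups alone, omission of the 6 h sham livers, and omission of each liver. Total counts were 26232544 to 48827025 per library. The members and gene lists were chosen with earlier results of these data known. Genes named outside the members came from those lists, the nearest genes by likeness excepted. Replicate numbers were given in accession order and pair no samples. Figures used matplotlib 3.10.9.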

Additional observations from a re-analysis of the deposited data

Results flagged for a closer look

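In 50 groups of 4 or 5 livers (10 genes in the KO and WT sham, KO 24 h, KO 48 h and WT 48 h groups), Dixon's test at the 95% level singled out 6 values, and chance gives about 1 in 20 groups. Members move together within a liver, so these are not separate events. In KO livers at 24 h, replicate 1 stood above the others for Saa1 (10944 CPM, against 4852 to 5326), Saa2 (16870 CPM, against 5862 to 6845) and Hpx (24869 CPM, against 6268 to 7234). WT 48 h replicate 1 stood above the others for Hpx (26810 CPM, against 9437 to 10140). WT sham replicate 1, the 7 d sham liver, stood below the others for Saa1 (46.8 CPM, against 2227 to 7447) and Hpx (3705 CPM, against 11775 to 16431).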

How the results depend on the processing

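Over the alternatives other than single-liver omissions, 120 counts of members called stayed within 1.5 times and 33 moved. Of the changes of named genes, 115 kept direction and side of the threshold, 28 passed only under the alternative, 8 lost the threshold and 1 reversed. Without a count filter beyond 1 count, the members called against sham numbered 3, 4, 2 and 3 in KO livers and 5, 7, 3 and 2 in WT livers at 6 h, 24 h, 48 h and 7 d. They numbered 1, 5, 2 and 2 for KO against WT at these times, 5 in the average, 1, 5 and 2 in the 6 h, 24 h and 48 h interactions, 4 between the sexes and 0 for 6 h against later sham. In that setting edgeR's prior degrees of freedom became infinite, against 4.84 with the filter, so each gene took the spread of the trend. The quasi-dispersion of Saa3 was 0.724 in place of 11.6. Each fit estimates its own count model, so these values are not on the same scale. Numbers of all genes called are given below for DESeq2 only. For the other settings the counts of members stand without them.

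Without the 6 h sham livers, 1 member was called at 6 h in KO (Serpina3n), and 2 at 6 h (Serpina3n and Lcn2) and 0 at 24 h in WT. WT 24 h had 0 without a sex term, in males alone and in the compared groups alone, and KO against WT at 24 h had 0 in the compared groups alone. Without a sex term KO against WT at 24 h kept a count of 1, but the gene was Saa3 (adjusted p = 0.0488) and Apcs was lost (adjusted p = 0.139). In males alone KO 24 h had 1 and 6 h against later sham had 0. DESeq2 called 1 in WT at 48 h, 2 for KO against WT at 24 h, 1 in the average, 1 in the 24 h interaction and 2 between the sexes. Among all genes it called 1799, 3508, 865, 2109 and 853 in these comparisons, in that order. Where no value is given a cause, the cause was not tested. The KO 24 h change of Apcs, 0.11, was -0.10 without the 6 h sham livers and ran from -0.40 to 0.58 over omissions of single livers.

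Over those omissions the members called ran from 0 to 2 in KO at 24 h, 0 to 2 in WT at 6 h, 0 to 1 in WT at 24 h and at 48 h, 0 to 3 for KO against WT at 24 h, 0 to 1 in the average, 0 to 2 in the 24 h interaction, 0 to 1 between the sexes and 0 to 2 for 6 h against later sham. In the other contrasts they stayed at 0. Males alone gave no 48 h time-matched contrast. No paired analysis was possible because replicate numbers follow accession order. Groups of 3 to 5 livers, and 1 or 2 sham livers per time apart from 48 h, limit the precision.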
